A study of Mus musculus with 8 samples.

Results

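Focal adhesion and stress fibre genes encode the proteins that tie a cell's actin bundles to the matrix through integrins, and the proteins that build, crosslink and contract those bundles. The 48 members were the genes of a written list whose symbols matched rows of the deposited count table of 32859 genes. All 48 were found once each, and all 48 passed the filter on low counts that left 18439 genes for testing. The libraries came from portal fibroblasts of the liver, collected as Clec3b-tdT+ cells from livers of normal Clec3bCreERT2;R26tdT mice, in which Cre driven by Clec3b marks cells with a red reporter once it is induced. A lentivirus then brought in Klf4, a zinc-finger transcription factor (Lenti-Klf4, 4 libraries), or no named insert (Lenti-Ctrl, 4 libraries). Both groups therefore share the sort, the reporter alleles and a viral transduction. The age and sex of the mice, the induction, the time after transduction and whether a group's libraries came from separate mice or cultures are not stated in the available labels. The p-values measure the spread between these libraries, which may be technical.

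At a focal adhesion, talin and kindlin bind the integrin tail, vinculin and filamin carry force to actin, and a platform of integrin-linked kinase, PINCH and parvin joins the same site. Focal adhesion kinase, paxillin and the Cas proteins signal from there. Stress fibres are bundles of actin and non-muscle myosin held by alpha-actinin and decorated by tropomyosin, caldesmon and calponin. In fibroblasts that turn into myofibroblasts these structures are known to enlarge, and many of the genes are known targets of serum response factor, which binds a DNA motif called the CArG box.

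Total counts ranged from 57306334 to 87361995 per library. Between libraries, log2 CPM over the genes tested correlated at 0.978 to 0.983 within a group and at 0.855 to 0.869 between groups, a description across genes, which are not independent replicates. Klf4 was higher in every Lenti-Klf4 library, at 201, 241, 234 and 235 CPM (the normalised read count, scaled to library size) against 86.8, 92.3, 83.0 and 87.1 CPM in Lenti-Ctrl (log2 fold change 1.38 with an SE of 0.0555, adjusted p = 2.5e-10). The authors' deposited table of their own test gave 1.59 for Klf4. Over the 11044 genes compared, those with a mean normalised count of at least 100 in that table, it lay a near-constant distance from the ratio of the deposited counts. Klf4 lay 0.286 above that distance on the log2 scale, whereas every other gene compared lay between -0.0381 and 0.0422 of it. The cause was not tested.

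Markers checked the labelled cells. Clec3b itself, whose activity in the mouse sets the reporter, summed to 4 counts in Lenti-Ctrl and 73 in Lenti-Klf4, near 0 in both groups. Of 17 portal fibroblast markers tested, 6 (35.3%) were higher and 9 (52.9%) lower in Lenti-Klf4 at an adjusted p under 0.05. Of all genes tested, 37.5% were higher and 34.7% lower by that rule, and the marker counts below stand beside the same shares. Thy1, Gli1, Slit2, Cd34, Ly6a and Dpt were the higher ones, with Ly6a at 3.09 ± 0.478 and 39.8 ± 1.91 CPM and Dpt at 8.27 ± 1.53 and 51.8 ± 2.74 CPM (SD, n = 4 each). Among the lower ones, Col1a1, a collagen gene of fibroblasts, stood at 10815 ± 311 and 2749 ± 225 CPM, and Eln, encoding elastin, at 664 ± 25.9 and 12.9 ± 1.57 CPM. These genes were chosen after their values were seen. The libraries also held counts of genes listed as markers of other cells. Some of these genes, Acta2 and Tagln among them, may also be made by fibroblasts, which was not tested. Of 21 macrophage and leukocyte markers tested, 19 were lower and 1 higher in Lenti-Klf4, with a sum of 6344 to 6787 CPM in Lenti-Ctrl and 228 to 315 CPM in Lenti-Klf4, where Clec4f and Cx3cr1 were at 0. Endothelial markers (14 of 15 lower) summed to 704 to 713 and 63.3 to 83.2 CPM, and vascular smooth muscle and pericyte markers (13 of 13 lower, with Higd1b at 0 in both groups) to 7619 to 7937 and 667 to 702 CPM, most of it Acta2 and Tagln. Stellate cell markers (11 of 12 lower) summed to 1533 to 1579 and 399 to 480 CPM, and mesothelial markers (8 of 10 higher) to 210 to 219 and 653 to 790 CPM. Hepatocyte markers (4 higher and 2 lower of 6) summed to 329 to 339 and 32.6 to 47.0 CPM, with Apoa1 and Ttr at 0 in Lenti-Ctrl. Trf (294 and 24.05 CPM) and Apob (41.0 and 6.71 CPM), the lower ones, carry nearly all of that sum in Lenti-Ctrl, while Alb, Cps1, Fgb and Hnf4a were higher, at 2.98, 6.10, 1.15 and 0.491 CPM in Lenti-Klf4. Cholangiocyte markers (4 higher and 2 lower of 9, or 44.4% and 22.2%) summed to 398 to 414 and 704 to 755 CPM, with Sctr at 0 in Lenti-Klf4. The mitochondrial share of counts was 2.22 ± 0.0951% in Lenti-Ctrl and 2.50 ± 0.0639% in Lenti-Klf4, without overlap (exact two-sided permutation p = 0.0286). The part of the markers and of this share in the results below was not tested, and in bulk RNA fewer cells of a type and less RNA per cell cannot be told apart.

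Of the 39 members with a RefSeq promoter window, 6 held a CArG box within the 250 bases before to 50 bases after an annotated start. The stretches before the start site that hold it are shown because these 6 genes, which code for gamma-actin, calponin 2, kindlin-2, the Z-line protein Ldb3, a myosin light chain and vinculin, span 4 of the 5 roles. All 6 were lower in Lenti-Klf4, as were 91.7% of the members and 34.7% of all genes tested. Each is written 5′ to 3′ on the strand of its gene, from RefSeq's mouse build GRCm38.p6, with the box in capitals and the other bases in lower case. The stretches lie at chr11:120348526-120348635 (minus strand, Actg1), chr10:79988494-79988599 (plus, Cnn2), chr14:45530210-45530315 (minus, Fermt2), chr14:34588657-34588766 (minus, Ldb3), chr10:128493010-128493109 (minus, Myl6) and chr14:20929148-20929230 (plus, Vcl).
Actg1: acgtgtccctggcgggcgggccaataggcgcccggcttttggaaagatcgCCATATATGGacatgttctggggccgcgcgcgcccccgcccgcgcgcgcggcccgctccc
Cnn2: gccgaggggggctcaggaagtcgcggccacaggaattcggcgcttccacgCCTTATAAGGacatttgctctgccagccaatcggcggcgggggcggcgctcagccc
Fermt2: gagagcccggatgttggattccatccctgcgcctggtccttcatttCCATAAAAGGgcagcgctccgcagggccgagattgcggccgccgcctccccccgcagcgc
Ldb3: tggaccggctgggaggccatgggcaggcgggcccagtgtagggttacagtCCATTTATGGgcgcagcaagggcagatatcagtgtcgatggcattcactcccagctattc
Myl6: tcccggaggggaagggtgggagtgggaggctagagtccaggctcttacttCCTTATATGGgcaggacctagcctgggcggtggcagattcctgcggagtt
Vcl: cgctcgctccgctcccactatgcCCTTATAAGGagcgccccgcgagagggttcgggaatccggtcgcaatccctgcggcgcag

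The box starts 90 bases before the start site in Actg1, 56 in Cnn2, 204 in Fermt2, 109 in the window shown for Ldb3, 50 in Myl6 and 227 in Vcl. Cnn2 and Vcl share the same 10 letters. As a description, 13.5% of the 52 member windows held a CArG box, against 1.63% of all 32851 windows of 300 bases and 1.35% of the windows of genes tested. Several windows can belong to the same gene, and the same box of Ldb3 was counted in overlapping member windows. Many of the members are known targets of serum response factor, so the CArG share depends on how the list was made and tests nothing about the virus. The letters CACCC on either strand, part of the sequences that Kruppel-like factors are known to bind, were in 78.8% of member windows, 57.5% of all windows and 63.4% of the windows of genes tested. CATTCC on either strand, the core bound by TEAD factors, was in 23.1%, 14.7% and 12.8%. The median log2 fold change of members with and without the letters was -1.84 and -1.41 for the CArG box, -1.40 and -1.93 for CACCC, and -1.41 and -1.63 for CATTCC. A match is a run of letters and not a shown binding site.

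Most focal adhesion and stress fibre genes were lower with the Klf4 virus. Of 48 members, 44 fell, 3 rose and 1 did not pass an adjusted p of 0.05 by edgeR's quasi-likelihood test, where 72.2% of all genes tested passed in either direction. By the same rule 34.7% of all genes tested were lower and 37.5% higher, against 91.7% and 6.25% of the members. The members had more counts, with a median of 306 CPM against 14.1 CPM over all genes tested, and differences pass more readily in genes with more counts. Past a log2 fold change of 1, 31 members fell and 1 rose, where 17.7% and 16.4% of all genes did. The median log2 fold change was -1.41 over the members and 0.03 over all genes tested. The groups did not overlap for 47 members, 44 of them lower, against 69.2% of all genes and 33.2% that were lower without overlap. Across the 48 members, log2 fold change and log2 CPM had a Pearson coefficient of 0.257 and a Spearman coefficient of 0.131, a description over genes measured in the same libraries. Together the 48 genes took 3.35 ± 0.0152% of all counts in Lenti-Ctrl and 1.53 ± 0.00367% in Lenti-Klf4 (exact two-sided permutation p = 0.0286, the smallest that 4 against 4 libraries allow).

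**Figure D1:**
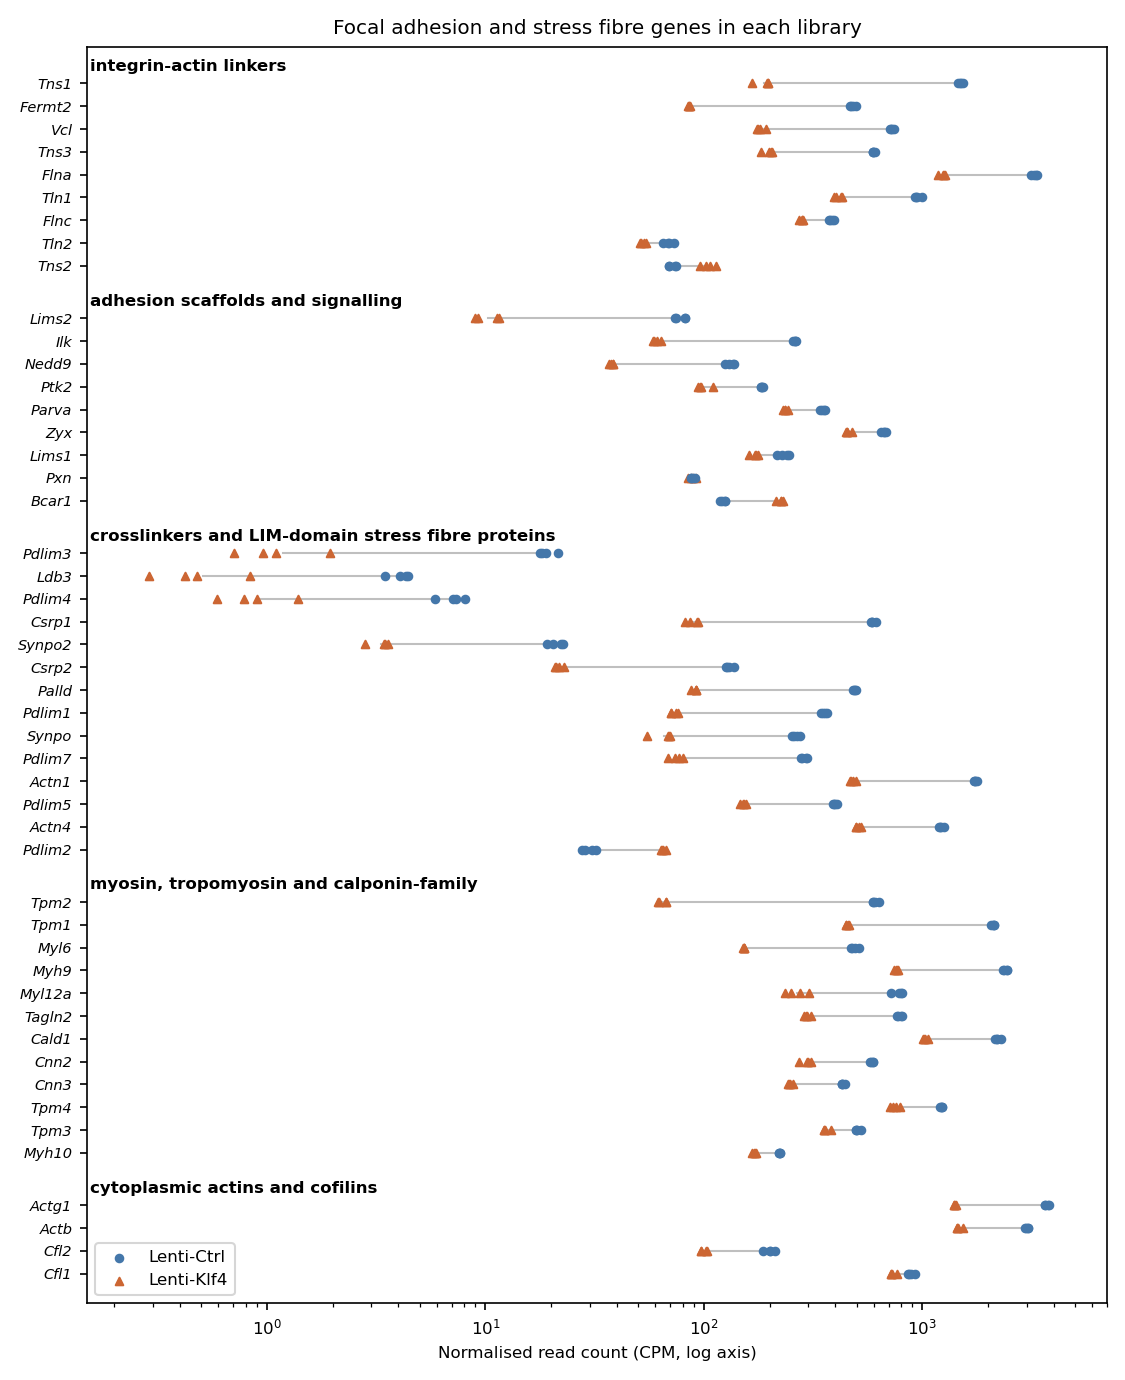
Normalised read count (CPM, log axis) of the 48 genes in each of 8 libraries, by role and, within a role, by log2 fold change; circles are Lenti-Ctrl, triangles Lenti-Klf4, and the grey line joins the group means. Triangles lie left of circles for 44 genes and right of them for Tns2, Bcar1 and Pdlim2, while those of Pxn overlap.

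The linkers between integrins and actin fell in 8 of 9 cases, with a median log2 fold change of -1.40. Flna (chromosome X, 73267067 to 73293426 in GRCm39, minus strand) codes for filamin A, an actin crosslinker that binds integrin tails. It held 3317, 3363, 3146 and 3248 CPM in Lenti-Ctrl replicates 1 to 4 and 1179, 1254, 1264 and 1247 CPM in Lenti-Klf4. All 4 Lenti-Klf4 libraries lay well below the controls, 2.64-fold lower (log2 fold change -1.40 with an SE of 0.0283, adjusted p = 6.68e-13). Tns1 (chromosome 1, 73949390 to 74163606, minus strand), the tensin of mature fibrillar adhesions, fell furthest in this class. Its libraries read 1527, 1497, 1455 and 1479 CPM in Lenti-Ctrl against 167, 195, 196 and 196 CPM, 7.89-fold lower (log2 fold change -2.98 with an SE of 0.0504, adjusted p = 1.51e-13). Replicate 1 was the lowest of the Lenti-Klf4 libraries, and the groups stood far apart. Fermt2 (chromosome 14, 45696252 to 45767575, minus strand), the kindlin of fibroblasts that activates integrins with talin, gave 481, 465, 494 and 472 CPM in Lenti-Ctrl. With the Klf4 virus its counts were nearly equal in the 4 libraries, at 84.6, 86.1, 85.6 and 85.7 CPM (log2 fold change -2.48 with an SE of 0.029, adjusted p = 1.19e-14).

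Vcl, encoding vinculin, fell 4.0-fold, from 724 ± 14.3 to 181 ± 7.71 CPM. Tns3, a tensin of migrating cells, fell from 598 ± 7.38 to 197 ± 9.77 CPM, and Tln1, the main talin, from 951 ± 28.9 to 413 ± 16.4 CPM. The minor paralogues moved less. Tln2 fell by 0.40 and Flnc, a filamin best known from muscle, by 0.45 on the log2 scale. Tns2 was the exception that rose, from 74.7, 73.7, 69.5 and 69.2 CPM to 95.6, 113, 106 and 102 CPM (log2 fold change 0.54 with an SE of 0.0516, adjusted p = 9.78e-07). Vcl overlaps Ap3m1 on the other strand, which stood at 241 and 138 CPM, and the sources used here do not give the strand setting of the counting.

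Adhesion scaffolds and signalling proteins were the most divided class, with 7 of 9 lower, 1 higher, 1 not past the threshold and a median of -0.57. Lims2 and Ilk code for PINCH-2 and integrin-linked kinase, partners in the same complex. Lims2 (chromosome 18, 32055343 to 32091571, plus strand) read 81.7, 73.5, 81.7 and 74.6 CPM in Lenti-Ctrl and 8.96, 11.5, 11.3 and 9.2 CPM in Lenti-Klf4 (log2 fold change -2.93 with an SE of 0.0876, adjusted p = 1.73e-11). Ilk (chromosome 7, 105385799 to 105392132, plus strand) read 256, 262, 261 and 263 CPM against 59.0, 63.4, 60.9 and 58.4 CPM (log2 fold change -2.11 with an SE of 0.0344, adjusted p = 1.19e-13). The 4 Lenti-Klf4 libraries of each gene lay far below all controls. Taf10, which overlaps Ilk on the opposite strand, stood at 140 and 108 CPM, and Rrp8, which also overlaps it, at 48.2 and 63.0 CPM.

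The other members that code for partners of that complex changed less. Outside the members, the parvin genes Parvb and Parvg had log2 fold changes of -0.74 and -4.43, with Parvg at 22.6 and 1.06 CPM. Parva, encoding alpha-parvin (chromosome 7, 112026712 to 112190899, plus strand), read 339, 356, 357 and 346 CPM against 235, 230, 242 and 236 CPM (log2 fold change -0.57 with an SE of 0.029, adjusted p = 2.34e-09). Lims1, encoding PINCH-1, fell from 233 ± 12.9 to 171 ± 6.42 CPM. Zyx (chromosome 6, 42326564 to 42337147, plus strand) codes for zyxin, which moves to strained stress fibres. It read 667, 680, 668 and 645 CPM in Lenti-Ctrl and 477, 449, 453 and 452 CPM in Lenti-Klf4, where replicate 1 was the highest but still below every control (log2 fold change -0.54 with an SE of 0.0281, adjusted p = 2.83e-09).

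The signalling members split. Ptk2, encoding focal adhesion kinase, fell from 184 ± 1.82 to 99.4 ± 7.44 CPM. The Cas proteins, docking proteins phosphorylated at adhesions, moved in opposite directions: Nedd9 fell from 132 ± 5.41 to 37.8 ± 0.678 CPM, while Bcar1, encoding p130Cas, rose from 123 ± 2.92 to 224 ± 7.02 CPM (log2 fold change 0.87 with an SE of 0.0332, adjusted p = 1.54e-10). Pxn, encoding the adaptor paxillin, gave 90.7, 87.4, 87.0 and 89.4 CPM in Lenti-Ctrl and 91.7, 87.5, 89.5 and 84.3 CPM in Lenti-Klf4. The groups overlapped (log2 fold change -0.01 with an SE of 0.0365, adjusted p = 0.891). The log2 fold change of Pxn passed as higher when libraries were scaled by their totals alone (0.19, adjusted p = 0.000366), and the authors' deposited table gives it -0.09 with an adjusted p of 0.0445, on the lower side.

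Crosslinkers and LIM-domain proteins of stress fibres, many of which sit at the Z-line in muscle, fell furthest, with 13 of 14 lower, all 13 past a log2 fold change of -1, and a median of -2.36. Actn1 and Actn4 code for the non-muscle alpha-actinins that crosslink actin. Actn1 (chromosome 12, 80214321 to 80307145, minus strand) read 1750, 1783, 1736 and 1720 CPM in Lenti-Ctrl against 468, 472, 498 and 482 CPM, 3.64-fold lower (log2 fold change -1.86 with an SE of 0.0258, adjusted p = 3.74e-14). Actn4 (chromosome 7, 28592673 to 28661765, minus strand) read 1197, 1262, 1214 and 1207 CPM against 522, 498, 499 and 511 CPM, 2.4-fold lower (log2 fold change -1.27 with an SE of 0.026, adjusted p = 7.82e-13). Neither gene had a Lenti-Klf4 library near a control.

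Pdlim3, with few counts, had the largest fall of all 48 members, and its relative Ldb3 the third. Pdlim3, the actinin-associated LIM protein (chromosome 8, 46338498 to 46372585, plus strand), gave 17.7, 21.5, 19.0 and 18.2 CPM in Lenti-Ctrl and 0.956, 0.707, 1.95 and 1.10 CPM in Lenti-Klf4 (log2 fold change -4.02 with an SE of 0.241, adjusted p = 1.09e-08). Ldb3, known as ZASP or Cypher in muscle (chromosome 14, 34248560 to 34310639, minus strand), gave 3.47, 4.41, 4.32 and 4.09 CPM and then 0.421, 0.289, 0.837 and 0.481 CPM (log2 fold change -3.00 with an SE of 0.292, adjusted p = 1.15e-06). These falls are large but rest on few reads, 327 counts of Pdlim3 and 141 of Ldb3 over the 4 Lenti-Klf4 libraries, and replicate 3 was the highest of them for both. Pdlim4 fell from 7.10 ± 0.895 to 0.915 ± 0.336 CPM, on 252 counts in Lenti-Klf4. Abundant members fell as well: Csrp1, a cysteine-rich LIM protein, from 592 ± 13.1 to 89.0 ± 5.48 CPM, Palld, the bundling protein palladin, from 491 ± 7.21 to 90.9 ± 2.48 CPM, and Pdlim1 from 355 ± 9.66 to 73.0 ± 2.64 CPM.

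Csrp2, Synpo2, Pdlim7 and Pdlim5 had log2 fold changes of -2.60, -2.67, -1.94 and -1.39, and Synpo went from 263 ± 9.13 to 65.9 ± 7.38 CPM. The synaptopodins are actin-associated proteins first known from podocytes and muscle. Pdlim2 stood apart from its family and rose 2.18-fold. Its libraries read 30.8, 27.8, 28.5 and 32.0 CPM in Lenti-Ctrl and 63.4, 64.4, 67.1 and 65.0 CPM in Lenti-Klf4 (log2 fold change 1.13 with an SE of 0.052, adjusted p = 9.03e-10). Pdlim2 is also known as Mystique and as a ubiquitin ligase in immune cells.

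All 12 genes of myosin, tropomyosin and the calponin family were lower (median log2 fold change -1.26). Cald1 and Myh9 had the most counts among them. Cald1 (chromosome 6, 34575435 to 34752408, plus strand), encoding caldesmon, which restrains myosin on actin, read 2290, 2148, 2204 and 2195 CPM against 1062, 1004, 1019 and 1033 CPM (log2 fold change -1.10 with an SE of 0.0259, adjusted p = 2.17e-12). Myh9 (chromosome 15, 77644787 to 77726375, minus strand), the heavy chain of non-muscle myosin IIA, read 2435, 2429, 2338 and 2359 CPM against 745, 772, 765 and 759 CPM (log2 fold change -1.65 with an SE of 0.0227, adjusted p = 3.71e-14). The heavy chain of myosin IIB changed less: Myh10 stood at 222 ± 1.58 and 170 ± 2.52 CPM (log2 fold change -0.39), still without overlap between the groups.

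Tropomyosins run along actin filaments and set which myosins and severing factors reach them. Tpm2 (chromosome 4, 43514711 to 43523464, minus strand) fell 9.4-fold, from 606, 631, 597 and 594 CPM to 62.5, 66.8, 61.9 and 66.9 CPM (log2 fold change -3.23 with an SE of 0.0373, adjusted p = 1.19e-14). Tpm1 (chromosome 9, 66929872 to 66956549, minus strand) fell 4.66-fold, from 2115, 2132, 2067 and 2125 CPM to 445, 462, 448 and 456 CPM (log2 fold change -2.22 with an SE of 0.0226, adjusted p = 3.44e-15). Tpm4 and Tpm3 fell by 0.71 and 0.48 on the log2 scale, to 748 ± 36.4 and 362 ± 12.8 CPM. Tpm3 has a near copy, Tpm3-rs7, at 43.7 and 32.2 CPM, and with its counts added the log2 fold change of Tpm3 was -0.48 as before. Tpm2 lies 8054 bases from Tln1, with no other gene of the table between them, and Tpm1 lies 171386 bases from Tln2 with 2 genes between. The tropomyosin of each pair had the larger fall.

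Among the light chains, Myl6, the essential chain, fell 3.21-fold from 488 ± 18.9 to 152 ± 1.16 CPM. Myl12a, the regulatory chain whose phosphorylation switches contraction on (chromosome 17, 71300651 to 71309549, minus strand), read 800, 718, 780 and 811 CPM against 250, 275, 303 and 235 CPM (log2 fold change -1.55, SE 0.0689). It overlaps Gm49909, a protein-coding gene model on the same strand (chromosome 17, 71281114 to 71309203) that spans most of Myl12a and of its neighbour Myl12b. Gm49909 held 0.455, 119, 0 and 0.276 CPM in Lenti-Ctrl and 258, 210, 168 and 255 CPM in Lenti-Klf4. How the authors' counting assigned reads in the overlap was not tested. With all counts of Gm49909 added to Myl12a, a choice made after seeing the data that leaves none to Myl12b, the sums were 800, 837, 780 and 811 CPM against 508, 485, 471 and 490 CPM, and the log2 fold change was -0.72 (SE 0.0308, adjusted p = 3.78e-10). The SDs were 41.4 and 29.8 CPM for Myl12a alone and 23.7 and 15.3 CPM for the sum. Myl12b, another regulatory chain, stood at 82.3 ± 4.71 and 94.4 ± 3.13 CPM. Myl9, a further regulatory chain listed below with the muscle paralogues, stood at 429 ± 8.93 and 33.3 ± 2.165 CPM.

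**Figure D2:**
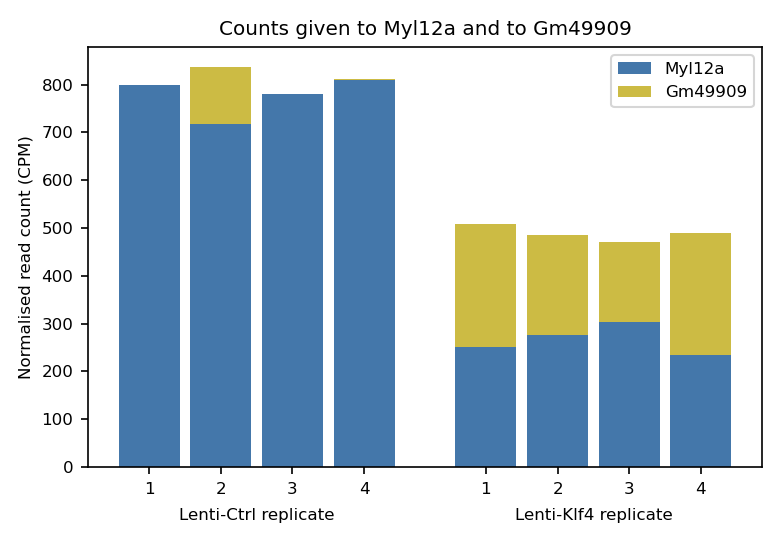
Normalised read count (CPM) given to Myl12a (blue) and to the overlapping gene model Gm49909 (yellow, stacked on top) in each of 8 libraries. Gm49909 takes 168 to 258 CPM in the 4 Lenti-Klf4 libraries and, among the Lenti-Ctrl libraries, 119 CPM in replicate 2 and under 1 CPM in the others.

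The calponin family completed this class. Tagln2, encoding transgelin-2, fell from 788 ± 20.3 to 296 ± 8.88 CPM, Cnn2 from 585 ± 7.43 to 294 ± 16.2 CPM and Cnn3 from 431 ± 7.52 to 248 ± 6.02 CPM. These calponins bind and stabilise actin filaments outside smooth muscle.

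The actins and cofilins all fell, with a median of -1.02. Actg1 (chromosome 11, 120236516 to 120239368, minus strand), encoding cytoplasmic gamma-actin, read 3636, 3807, 3751 and 3641 CPM against 1428, 1395, 1389 and 1407 CPM (log2 fold change -1.40 with an SE of 0.0216, adjusted p = 8.08e-14). Actb (chromosome 5, 142888870 to 142892509, minus strand), the beta-actin often used as a reference gene, read 2990, 3059, 3039 and 2960 CPM against 1531, 1443, 1436 and 1454 CPM (log2 fold change -1.04 with an SE of 0.0243, adjusted p = 2.12e-12). No Lenti-Klf4 library reached a control in either gene. Their coding sequences are close, and the sources used here do not give the treatment of reads that match several genes. Cfl1 and Cfl2 encode cofilins, which sever actin filaments. Cfl2 stood at 199.5 ± 10.5 CPM in Lenti-Ctrl and had a log2 fold change of -0.997. Cfl1 had the smallest change of the members that passed, by 0.27 on the log2 scale, from 883 ± 29.6 to 732 ± 20.6 CPM.

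**Figure D3:**
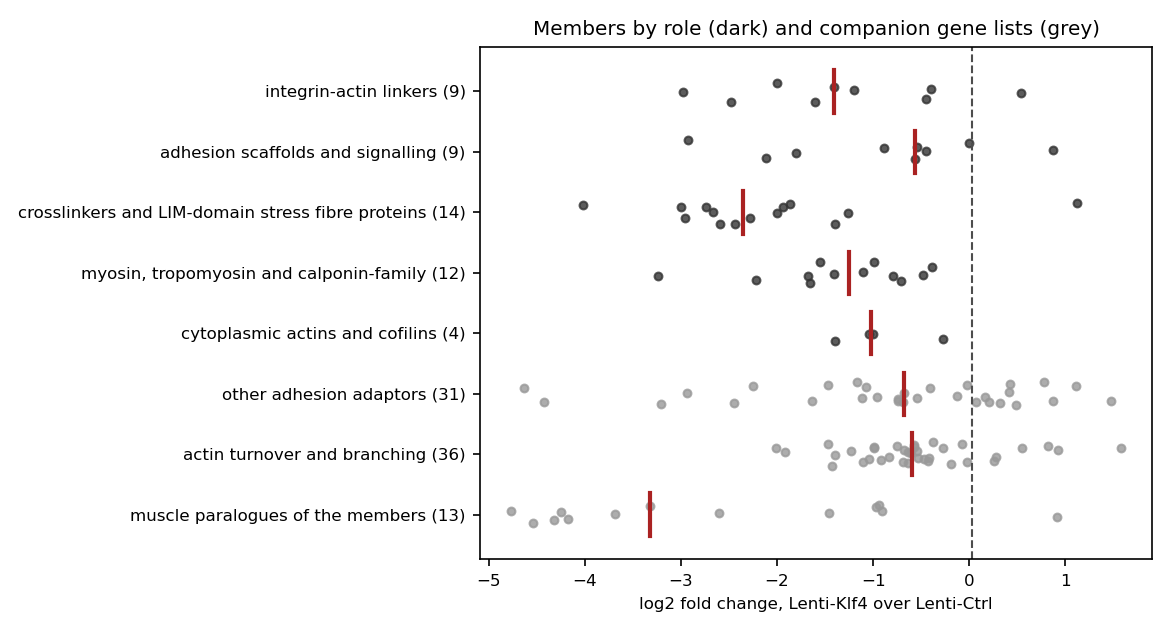
Log2 fold change (Lenti-Klf4 over Lenti-Ctrl) of each gene, for the members by role (dark) and for companion lists of the same pathway (grey), with the number of genes tested in brackets; the red bar is the median and the dashed line the median of all genes tested, 0.03. Crosslinkers and LIM-domain proteins have the lowest median of the 5 roles, -2.36, and the muscle paralogues the lowest of the companion lists, -3.32.

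Falls were unequal within families, so the make-up of several families differed between groups. This was measured as each gene's share of its family's summed FPKM, a unit scaled by transcript length that allows comparison between genes and, as a share within a library, does not depend on scaling between libraries. For each of the 25 shares in 14 families the groups did not overlap (exact two-sided permutation p = 0.0286, adjusted p = 0.0286 over the 25). This p is the smallest the design allows, so it states only the lack of overlap, which 69.2% of all genes tested showed in CPM. Shares within a family sum to a fixed whole and are not separate observations. In the tropomyosin family Tpm1 went from 36.0 ± 0.33 to 21.4 ± 0.90% of FPKM and Tpm2 from 23.1 ± 0.428 to 6.79 ± 0.427%. Tpm4 went from 31.7 ± 0.411 to 53.6 ± 1.24% and Tpm3 from 9.19 ± 0.233 to 18.2 ± 0.242%, so Tpm4 replaced Tpm1 as the leading tropomyosin by this measure, within a family total of 782 ± 4.78 and 325 ± 6.42 FPKM.

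The largest shift in percentage points was that of Tns1 among the tensins. Tns1 held 58.6 ± 0.349% of tensin FPKM in Lenti-Ctrl and 24.2 ± 0.755% in Lenti-Klf4, Tns2 went from 8.52 ± 0.20 to 40.4 ± 0.92%, and Tns3 from 32.8 ± 0.431 to 35.4 ± 0.603%. Bcar1 went from 56.6 ± 1.21 to 89.3 ± 0.338% of the Cas pair, and Lims1 from 64.0 ± 0.471 to 90.9 ± 1.32% of the PINCH pair. Pdlim2 rose from 3.57 ± 0.279 to 23.5 ± 0.212% of the PDZ-LIM family while Pdlim1 fell from 36.4 ± 0.774 to 22.5 ± 0.927% and Pdlim7 from 32.0 ± 0.837 to 25.1 ± 1.08%. The remaining PDZ-LIM shares were 24.2 and 27.8% for Pdlim5, 2.00 and 0.366% for Pdlim3, 1.49 and 0.570% for Pdlim4, and 0.358 and 0.133% for Ldb3.

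**Figure D4:**
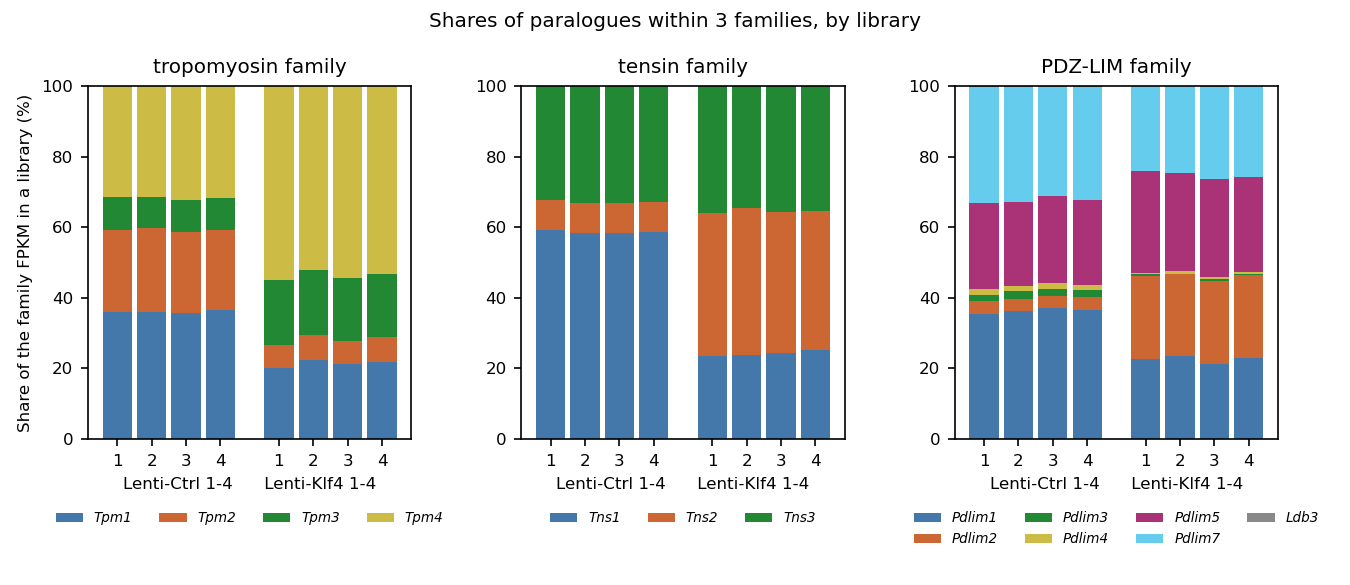
Percent of the family's summed FPKM held by each paralogue in each of 8 libraries, for tropomyosins, tensins and PDZ-LIM proteins; each bar is 1 library and sums to 100. Tpm4, Tns2 and Pdlim2 take larger shares in all 4 Lenti-Klf4 libraries, and Tpm2, Tns1 and Pdlim1 smaller ones.

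Several other families moved by smaller amounts. Myh9 held 89.7 ± 0.148 and 78.4 ± 0.439% of non-muscle myosin heavy chain FPKM, Flna 89.5 ± 0.264 and 81.5 ± 0.288% of the filamin pair, and Actn1 61.3 ± 0.342 and 51.1 ± 1.09% of the alpha-actinin pair. Actb went from 44.6 ± 0.239 to 50.9 ± 0.457% of cytoplasmic actin FPKM, within a total of 2181 ± 40.2 and 1069 ± 15.9 FPKM, so the order of beta- and gamma-actin turned. Cfl1 held 83.6 ± 1.03 and 89.4 ± 0.524% of the cofilins, Tln1 96.3 ± 0.191 and 93.6 ± 0.246% of the talins and Cnn2 62.6 ± 0.34 and 59.4 ± 0.993% of the calponin pair. Csrp1 held 83.4 and 82.1% of the cysteine-rich pair and Synpo 94.5 and 96.5% of the synaptopodins.

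Companion genes of the pathway, read from the same fit, were also mostly lower. Among 31 other adhesion adaptors there were 19 falls and 10 rises, and 2 genes missed the threshold (median log2 fold change -0.67). That is 61.3% lower and 32.3% higher, beside 34.7% and 37.5% of all genes tested, so the share of rises was near that of all genes. Tgfb1i1, encoding the paxillin relative Hic-5, fell from 282 ± 8.53 to 59.4 ± 1.96 CPM, Fblim1, encoding migfilin, from 157 ± 3.43 to 50.7 ± 1.38 CPM, and Lpp, a zyxin relative, from 393 ± 19.97 to 141 ± 5.55 CPM. Fermt3, the kindlin of blood cells and also a macrophage marker here, fell from 51.3 ± 1.12 to 2.07 ± 0.264 CPM. Among the 10 rises, Trip6 went from 63.0 ± 0.553 to 116 ± 3.94 CPM and Ablim1 from 20.4 ± 1.17 to 56.9 ± 4.52 CPM. Ajuba stood at 72.4 ± 0.55 and 71.3 ± 1.78 CPM and Arhgap35 at 136 ± 5.47 and 143 ± 3.96 CPM, neither past the threshold.

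The list of 36 actin turnover and branching genes had 28 lower and 6 higher, with 2 not past the threshold (median -0.59). These were 77.8% and 16.7% of the list, beside 34.7% and 37.5% of all genes tested. Tmsb4x, encoding the actin-sequestering thymosin beta-4, fell from 1040 ± 21.2 to 259 ± 2.63 CPM, and Msn, encoding moesin, from 2125 ± 34.1 to 768 ± 11.5 CPM. Coro1c fell from 420 ± 2.71 to 160 ± 3.39 CPM and Capzb, a capping protein subunit, from 445 ± 6.47 to 190 ± 2.33 CPM. Among the 6 higher genes, Ezr rose from 69.3 ± 4.58 to 208 ± 5.63 CPM and Rdx from 140 ± 5.23 to 205 ± 7.33 CPM. Coro1b, another of them, rose from 135 ± 3.64 to 257 ± 8.40 CPM. Arpc1b, a subunit of the Arp2/3 complex, stood at 420 ± 13.8 and 413 ± 8.40 CPM and Arpc1a at 91.9 ± 4.19 and 87.2 ± 1.49 CPM. Of 13 tested muscle paralogues of the members, 11 (84.6%) were lower and 1 (7.69%), Myl4, was higher (median -3.32). Leaving out any Lenti-Ctrl library or Lenti-Klf4 replicate 2 gave 2 higher genes. Acta2, Actg2, Myl9 and Lmod1 fell by 3.32, 4.24, 3.69 and 4.77 on the log2 scale, and Tagln3, at 0.206 ± 0.146 and 0.111 ± 0.0804 CPM, did not pass. Acta2, Tagln, Myh11, Cnn1, Smtn and Lmod1 are also among the vascular smooth muscle and pericyte markers above, so these lists are not separate observations. No difference between these lists was tested.

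The authors' deposited table lists 44 of the 48 members and leaves out Pdlim3, Pdlim4, Ldb3 and Synpo2, which were among the 8 largest falls here. It marks 24 members as Down, none as Up and 20 as Stable, and no gene it marks as changed had a log2 fold change smaller than 1.32 in size. By its adjusted p alone, 41 of the 44 were below 0.05 with a negative and 3 with a positive log2 fold change. For the members, its log2 fold changes minus those reported here lay between -0.0828 and -0.0816.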

How the data were processed

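The authors deposited raw counts per gene and, in the same table, FPKM values, with 1 column of each per library. A second table by the authors holds, per the file headers, a mean normalised signal (baseMean), log2 fold changes with a standard error, a test statistic as a score, and p-values with adjusted p-values from DESeq2. Tools named in the submitters' processing notes are cutadapt 1.9 for a first step, then HISAT2 2.2.1, StringTie 2.1.6 and DESeq2, with build GRCm39. The counting method, its strand setting and the treatment of multi-mapping reads are not given. The library preparation marked strand, per the labels' protocols.

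Counts were tested in R 4.3.3 with edgeR 4.0.16: filterByExpr, TMM scaling, a quasi-likelihood F test of group, and Benjamini-Hochberg adjustment over 18439 genes at 0.05, after a check on simulated data. CPM divides counts by the library total times its TMM factor. Errors are SDs over 4 libraries unless named as SE. The SE was derived from the test, as the size of the log2 fold change divided by the square root of its F statistic. Every fold change sets Lenti-Klf4 over Lenti-Ctrl. Shares of FPKM were tested by exact permutation of the 8 libraries. Alternatives used DESeq2 1.42.0, limma 3.58.1, other scalings and filters, a replicate block, summed counts of overlapping genes and each library left out. The labels state no pairing.

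The members and gene lists were chosen with earlier results of these data known. All 48 members are named. Values in every library are given for the 2 members with most counts and the 2 most changed of each role, and for others chosen after their values were seen (Tns2, Pxn, Pdlim2, Myl12a, Gm49909). From each companion list the text names up to 4 genes by smallest adjusted p and up to 2 of those not past 0.05, taken by CPM. Myl4, Trip6, Ablim1, Parvb, Parvg, Ezr, Rdx and Coro1b were chosen later, after their values were seen. One further list is not reported here. Promoter windows were matched by symbol to RefSeq (GRCm38.p6), while gene positions are in GRCm39 as deposited.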

Additional observations from a re-analysis of the deposited data

Results flagged for a closer look

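Within groups of 4 libraries, 11 of 148 sets of values held a library whose gap to the nearest of the other 3 passed Dixon's 95% limit, where chance alone flags about 1 in 20 sets. Lenti-Klf4 replicate 1 was the library in 6 of them. It was the lowest for Tns1 (167 CPM against 195 to 196 in the other 3) and Synpo (54.8 against 68.8 to 70.3 CPM). It was the highest for Zyx (477 against 449 to 453 CPM), Tpm3 (381 against 355 to 358 CPM), Cfl1 (762 against 718 to 724 CPM) and the share of Actb in cytoplasmic actin FPKM (51.5% against 50.6 to 50.7%). Lenti-Ctrl replicate 2 was the highest for Csrp1 (612 against 583 to 587 CPM), Cnn3 (443 against 427 to 429 CPM) and Gm49909 (119 against 0 to 0.455 CPM). Lenti-Klf4 replicate 3 was the lowest for Palld (87.2 against 91.9 to 92.4 CPM) and replicate 4 for Myl6 (151 CPM against 153 CPM in each of the others). For all 11 the groups still did not overlap.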

How the results depend on the processing

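Over all settings run, 44 members were lower. Of 818 recomputed log2 fold changes of members, 812 kept their direction and their side of the threshold; the other 6 all concerned the log2 fold change of Pxn, which was 0.19 with library totals alone, 0.0177 with no filter, 0.17 on log2(FPKM + 1) and 0.19 on log2(FPKM + 0.1), and -0.037 to 0.00987 with 1 library left out. It passed as higher in the settings with library totals alone and FPKM, which gave 4 higher members, 2 of them past a log2 fold change of 1, against 3 and 1. Library totals alone raised the median of all genes by 0.19. Members lower past 1 numbered 26 to 33, with 30 when Gm49909 was added to Myl12a. Higher muscle paralogues numbered 2 with no filter and with DESeq2, and 1 to 2 with 1 library left out. Actc1 (0 counts in Lenti-Ctrl and 67 in Lenti-Klf4), Actn2 (16 and 44) and Csrp3 (0 and 17) did not pass the main filter on low counts. They were therefore not tested in the main fit. The cause was not tested. All 225 recomputed family shares kept their direction. Libraries with the same replicate number did not deviate together (correlations of -0.00542 to 0.022), and the replicate block gave 3 higher and 44 lower members. Depth limits Pdlim3, Pdlim4 and Ldb3, which rest on 327, 252 and 141 counts in Lenti-Klf4.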
